A study of Drosophila melanogaster with 3 samples.

Results

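A set of 6 genes that fill, empty, buffer and sense the calcium store of the endoplasmic reticulum (ER) were examined for binding of Neu2, a DNA-binding protein with zinc fingers and a ZAD domain, in Drosophila melanogaster embryos. They were SERCA, Calr, Itpr, RyR, Stim and Cnx99A, out of 13945 protein-coding genes on the 6 main chromosome arms of the dm6 build (Ensembl annotation). They were chosen by function after the peak signals at SERCA and Calr were known, so the counts, signals and ranks below describe the genes and were not tested. The calls taken for a gene were those with a summit in the gene body or within 2 kb on either side.

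The material was 3 chromatin immunoprecipitation sequencing libraries, labelled as biological replicates, from whole embryos of mixed sex collected at 2 to 4 h. All 3 came from 1 transgenic line that stably carries Neu2 with GFP at its C-terminus, and an anti-GFP antibody was used, so the protein followed is the fusion and not the endogenous Neu2. Chromatin was sonicated to fragments of 200 to 800 bp. The libraries form a single group with no second genotype, stage or treatment, and the control against which the authors called peaks was not analysed here. Whole embryos mix all cell types of the stage, so a signal cannot be assigned to any one of them.

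The ER holds calcium at a far higher concentration than the cytosol. The ATP-driven pump encoded by SERCA moves calcium into the lumen, where calreticulin (Calr) and the membrane-anchored calnexin (Cnx99A) bind calcium and help glycoproteins fold. The inositol trisphosphate receptor (Itpr) and the ryanodine receptor (RyR) are the channels that let calcium out, and Stim senses an emptied store and opens the plasma membrane channel Orai so that the store can refill.

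Of the 6 genes, SERCA and Calr carried a peak of the authors' optimal list, the peaks that passed their threshold of irreproducible discovery rate (IDR), and the other 4 carried none. In both the summit lay within 1 kb of a transcription start site (TSS), so the count was 2 of 6 by either measure. Among all protein-coding genes, 14.8% had an optimal summit in the gene or within 2 kb and 8.73% had one within 1 kb of a TSS. Long genes hold more calls, and 3 of the 6 genes were 10 kb or longer. Among these, SERCA was the only one with an optimal summit, against 27.6% of all genes of that length. Because the genes were picked with these peaks known, nothing is read from the difference between these shares.

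The optimal list held 1471 calls with a median signal of 119, a highest of 998 and a lowest of 88.6. Signal is the authors' own peak value, and its scale differed between lists, so each replicate value is also given as relative signal, the value divided by that replicate's median at the optimal peaks (47.0 in replicate 1, 47.8 in replicate 2 and 33.1 in replicate 3). The SERCA and Calr peaks ranked 3 and 4 of the 1471. The next highest call at any of the 6 genes, a second one at SERCA, had a pooled signal of 65.2, below the lowest optimal signal. No call of the 6 genes therefore lay between 65.2 and 777.

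**Figure D1:**
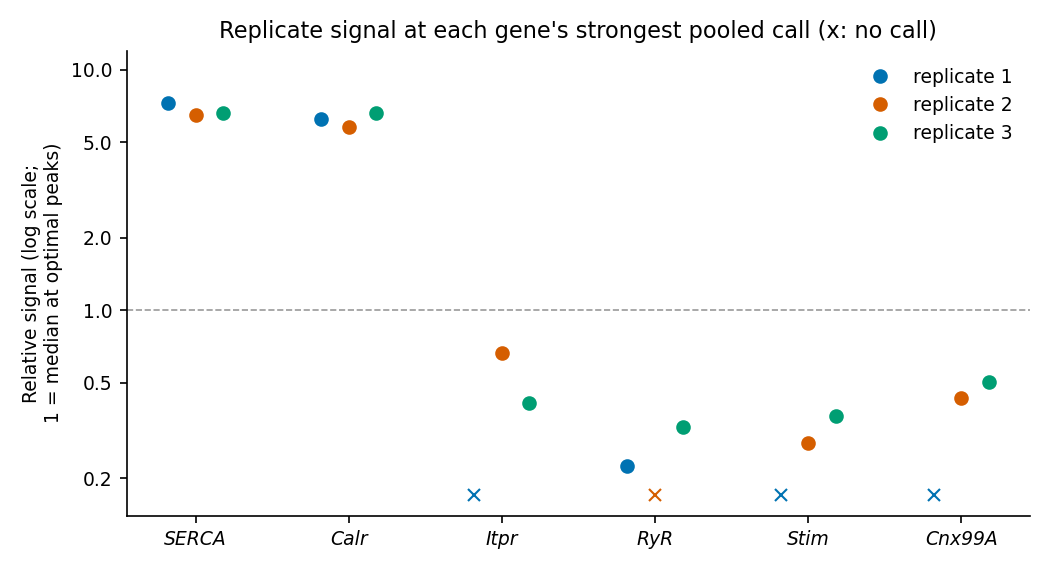
Relative signal (log scale) in each replicate at the strongest pooled call of each gene, with 1 marking the median at the optimal peaks and a cross marking a replicate with no call within 200 bp. The values of SERCA and Calr lie between 5.77 and 7.25 in all 3 replicates, and those of the other 4 genes lie below 1.

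SERCA (FBgn0263006, the calcium pump of the store) lies on 2R from 23925077 to 23935884 on the minus strand and has 5 annotated TSSs for 9 transcripts. Its optimal peak ran from 23933429 to 23933898 with the summit at 23933734 and a pooled signal of 859. In the separate lists the peak had a signal of 341 in replicate 1, 309 in replicate 2 and 218 in replicate 3. It ranked 4, 3 and 3 among the 30000 calls of those lists in that order. All 3 libraries thus placed it among their 4 strongest calls. The relative signals were 7.25, 6.47 and 6.60, with a mean of 6.77 ± 0.420 (SD, n = 3).

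The SERCA peak was not at the 5′-most start of the gene but at an internal one. Its summit lay 6 bp inside the transcript that starts at 23933740, in the 5′ UTR of that 1 transcript and in an intron of 3 others. A second start, 23933444, used by 5 of the 9 transcripts, fell inside the peak as well, 290 bp downstream of the summit. The start at 23934084 was 350 bp upstream of the summit, and the distal starts at 23935680 and 23935884 were 1946 and 2150 bp upstream. The replicate summits were 23933709, 23933704 and 23933734, a span of 30 bp, so all 3 lay nearest to the same start. No other protein-coding gene covered the summit, and the nearest TSS of another gene was that of CG3735, 6020 bp away.

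At the distal end of SERCA, a pooled call at 23936362 lay 478 bp upstream of the 23935884 start with the signal of 65.2 and rank 3025. Replicate 2 had this call with a signal of 39.7 at rank 1315, among its 1471 strongest. Replicate 1 had it at 22.4 and rank 3960, and replicate 3 had no summit within 200 bp. The remaining 3 pooled calls at SERCA had signals of 34.5, 32.5 and 30.4. The strongest call exceeded the second of the gene 13.2-fold in the pooled list and 11.0-fold, 7.79-fold and 14.6-fold in replicates 1, 2 and 3.

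Words of fly core promoters and of the factors CTCF, Zelda and GAGA were counted on both strands. The 250 bases upstream of each start were searched. The start at 23933740 carried the DNA replication-related element TATCGATA, a binding word of the factor Dref, 19 to 12 bases upstream of the TSS. The middle of the word was 21.5 bp from the optimal summit. None of the other 4 SERCA promoters held TATCGATA, and 6.90% of all 19253 distinct promoters did. A match is given as a description of the sequence and says nothing about which factor was bound.

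Calr (FBgn0005585) encodes calreticulin, the soluble calcium-binding chaperone of the lumen. It is a short gene on 3R from 9628691 to 9630851 on the minus strand with 1 TSS shared by 2 transcripts. The optimal peak ran from 9630616 to 9631038, and its summit at 9630819 lay 32 bp downstream of the TSS in the 5′ UTR of both transcripts. Its pooled signal was 777. The replicates gave signals of 294 at rank 7, 276 at rank 4 and 219 at rank 2, which are relative signals of 6.26, 5.77 and 6.62 with a mean of 6.22 ± 0.428 (SD, n = 3). The replicate summits were 43, 45 and 48 bp downstream of the TSS and spanned 5 bp.

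The neighbour SpdS, which encodes spermidine synthase, starts 822 bp from the Calr summit on the opposite strand, so the same peak also falls within 1 kb of a second gene's TSS. The Calr window held 4 further pooled calls with signals of 44.7, 44.2, 43.8 and 27.2. Only the 43.8 call lay in the gene. The nearest TSS was that of CG8319 for the 44.7 call and that of SpdS for the 44.2 and 27.2 calls. The 43.8 call had a call within 200 bp in all 3 replicates, at relative signals of 0.492, 0.287 and 0.410. Those replicate summits spanned 310 bp and lay up to 198 bp from the pooled one, so the match is loose. The strongest call of Calr exceeded its second 17.4-fold in the pooled list, and 12.7-fold, 7.73-fold and 10.8-fold in replicates 1, 2 and 3. Apart from SERCA and Calr, no gene of the 6 had a call that stood out in this way, the pooled ratio of strongest to second being 1.22 at Itpr, 1.16 at RyR and 1.22 at Cnx99A, with a single call at Stim.

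The bases upstream of the Calr TSS are shown beside those of Cnx99A, Itpr and Stim, whose promoters had no optimal peak, so that the words present at the strongly bound promoter can be compared with those at the others. Each is the 250 bases before the start, 5′ to 3′ along the gene, from the dm6 reference, and capitals mark matches to the words searched on either strand. The windows are chr3R:9630852-9631101 on the minus strand for Calr, chr3R:29319645-29319894 on the minus strand for Cnx99A, chr3R:5516867-5517116 on the plus strand for Itpr and chrX:15940452-15940701 on the minus strand for Stim.
Calr: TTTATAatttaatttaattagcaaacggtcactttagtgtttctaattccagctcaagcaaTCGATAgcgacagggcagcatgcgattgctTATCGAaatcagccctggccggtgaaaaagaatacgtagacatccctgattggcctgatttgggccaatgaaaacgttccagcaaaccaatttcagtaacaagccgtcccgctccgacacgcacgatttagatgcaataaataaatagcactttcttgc
Cnx99A: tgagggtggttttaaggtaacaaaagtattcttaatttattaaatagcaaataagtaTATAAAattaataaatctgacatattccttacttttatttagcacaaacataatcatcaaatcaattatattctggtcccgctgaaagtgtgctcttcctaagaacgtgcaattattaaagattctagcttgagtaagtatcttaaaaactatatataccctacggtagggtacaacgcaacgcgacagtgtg
Itpr: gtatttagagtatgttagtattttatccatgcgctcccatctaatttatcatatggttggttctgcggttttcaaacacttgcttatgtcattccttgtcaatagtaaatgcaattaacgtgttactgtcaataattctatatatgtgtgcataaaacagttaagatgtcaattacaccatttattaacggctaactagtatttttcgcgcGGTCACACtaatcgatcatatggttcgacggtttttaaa
Stim: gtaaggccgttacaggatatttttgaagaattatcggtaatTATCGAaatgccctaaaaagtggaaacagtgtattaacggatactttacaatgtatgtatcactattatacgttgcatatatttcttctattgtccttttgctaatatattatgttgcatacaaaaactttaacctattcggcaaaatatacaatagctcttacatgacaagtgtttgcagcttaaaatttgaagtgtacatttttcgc

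The Calr promoter lacked the full word TATCGATA but held its first 6 bases, TATCGA, at 2 places. One match lay on the other strand 189 to 184 bases upstream of the TSS and one on the gene's strand 159 to 154 bases upstream, 218.5 and 188.5 bp from the summit. This shorter word was added after the promoters had been read, overlaps the longer one, and occurred in 22.4% of all promoters. The first 6 bases of the Calr window, TTTATA, are the TATA word TATAAA read on the other strand, at the far end from the TSS, and 39.6% of promoters held that word. SERCA, RyR and Cnx99A promoters held it as well.

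The promoters of the genes without an optimal peak held some of the words found at SERCA and Calr and also Motif 1, which was at neither. Itpr had Motif 1, GGTCACAC, 39 to 32 bases upstream of its TSS, and Cnx99A had the same word on the other strand 51 to 44 bases upstream of its second start at 29319598. Motif 1 was present in 3.83% of all promoters. The Stim window shown held TATCGA 209 to 204 bases upstream, and the Cnx99A window held TATAAA 193 to 188 bases upstream. The words AGGTGGCG of CTCF and CAGGTAG of Zelda, which 0.634% and 1.52% of promoters hold, were in no promoter of the 6 genes. The word GAGAG of the GAGA factor, in 29.1% of all promoters, was found at SERCA, RyR and the other Stim start.

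**Figure D2:**
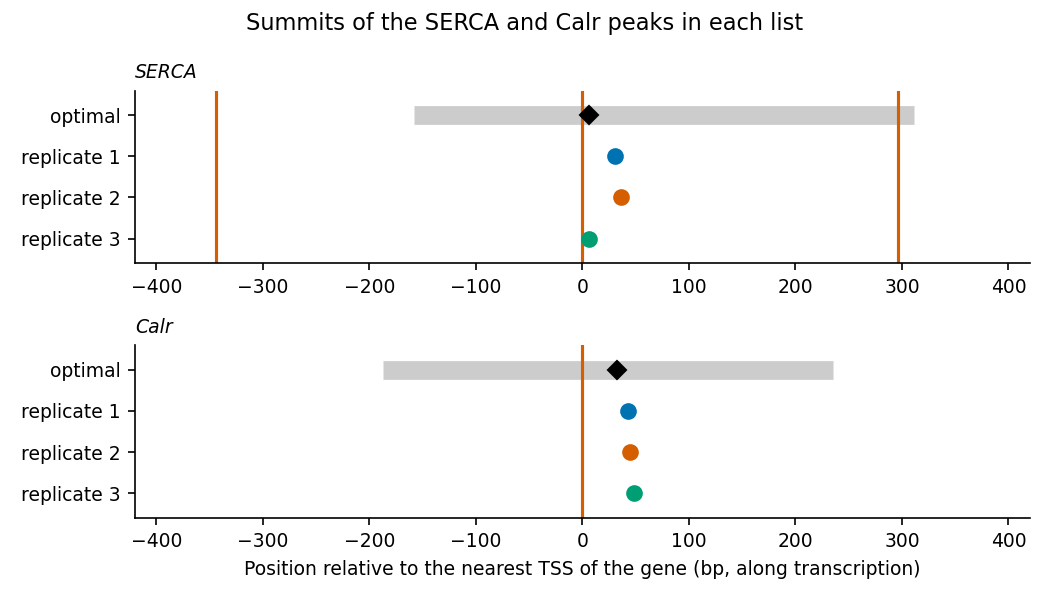
Position of the optimal peak (grey bar), its summit (black diamond) and the summit in each replicate (coloured points) relative to the nearest TSS of SERCA and of Calr, in bp along transcription, with orange lines at annotated TSSs. Replicate summits of SERCA span 30 bp and those of Calr span 5 bp, all on the downstream side of the TSS.

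SERCA and Calr had similar signals in each replicate. The ratio of their relative signals was 1.16, 1.12 and 0.996 in replicates 1, 2 and 3, and 1.11 for the pooled signals, so the order of the 2 peaks was not the same in every replicate. Their relative signals overlapped, from 6.47 to 7.25 at SERCA and from 5.77 to 6.62 at Calr. The coefficient of variation over replicates was 6.20% at SERCA and 6.88% at Calr, beside a median of 23.4% over the 1399 optimal peaks with a call in all 3 replicates and of 13.7% over the 20 of highest signal. The summit span of 5 bp at Calr was below the medians of 70 bp over these peaks and 27.5 bp over the top 20. The 30 bp at SERCA lay below the median over all peaks and above that of the top 20. Of all replicate calls, 99.76% to 99.93% had the summit at the midpoint of the call, but 0 of the replicate calls at these SERCA and Calr peaks did. The medians may therefore rest on summits placed in another way, and the spans may not be alike in measure.

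Likeness was measured as the Euclidean distance between log2 relative signals in the 3 replicates, over 1163 protein-coding genes with an optimal summit within 1 kb of a TSS and a call in every replicate. Calr, with its neighbour SpdS, which shares the Calr peak, was nearest to SERCA at a distance of 0.27. The next was px at 0.42, with a signal of 998, the highest of the list. For Calr the nearest after SpdS was SERCA at 0.27, followed by Ugalt at 0.47, a UDP-galactose transporter gene on X whose peak had a signal of 768 and rank 5. The relative signals were not centred, so the distance also measures peak height. SERCA and Calr were known to rank 3 and 4 when the genes were chosen. Their nearness followed from that choice, and nothing is read from it.

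Cnx99A (FBgn0015622), the calnexin gene, lies on 3R from 29315254 to 29319644 on the minus strand with 2 TSSs and had 3 pooled calls of 26.6 to 34.1. Its strongest was 25 bp upstream of the 29319644 start, with a pooled signal of 34.1 at rank 16740 of 30000. Replicate 2 had a signal of 20.6 and replicate 3 one of 16.7 there, which are relative signals of 0.430 and 0.505, and replicate 1 had no summit within 200 bp. Replicate 1 had 1 call in the whole window, of 12.1, 246 bp downstream of the 29319598 start. Calnexin and calreticulin share a lectin domain and a role in glycoprotein folding, but their promoters stood far apart in this list, with pooled signals of 34.1 and 777.

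**Figure D3:**
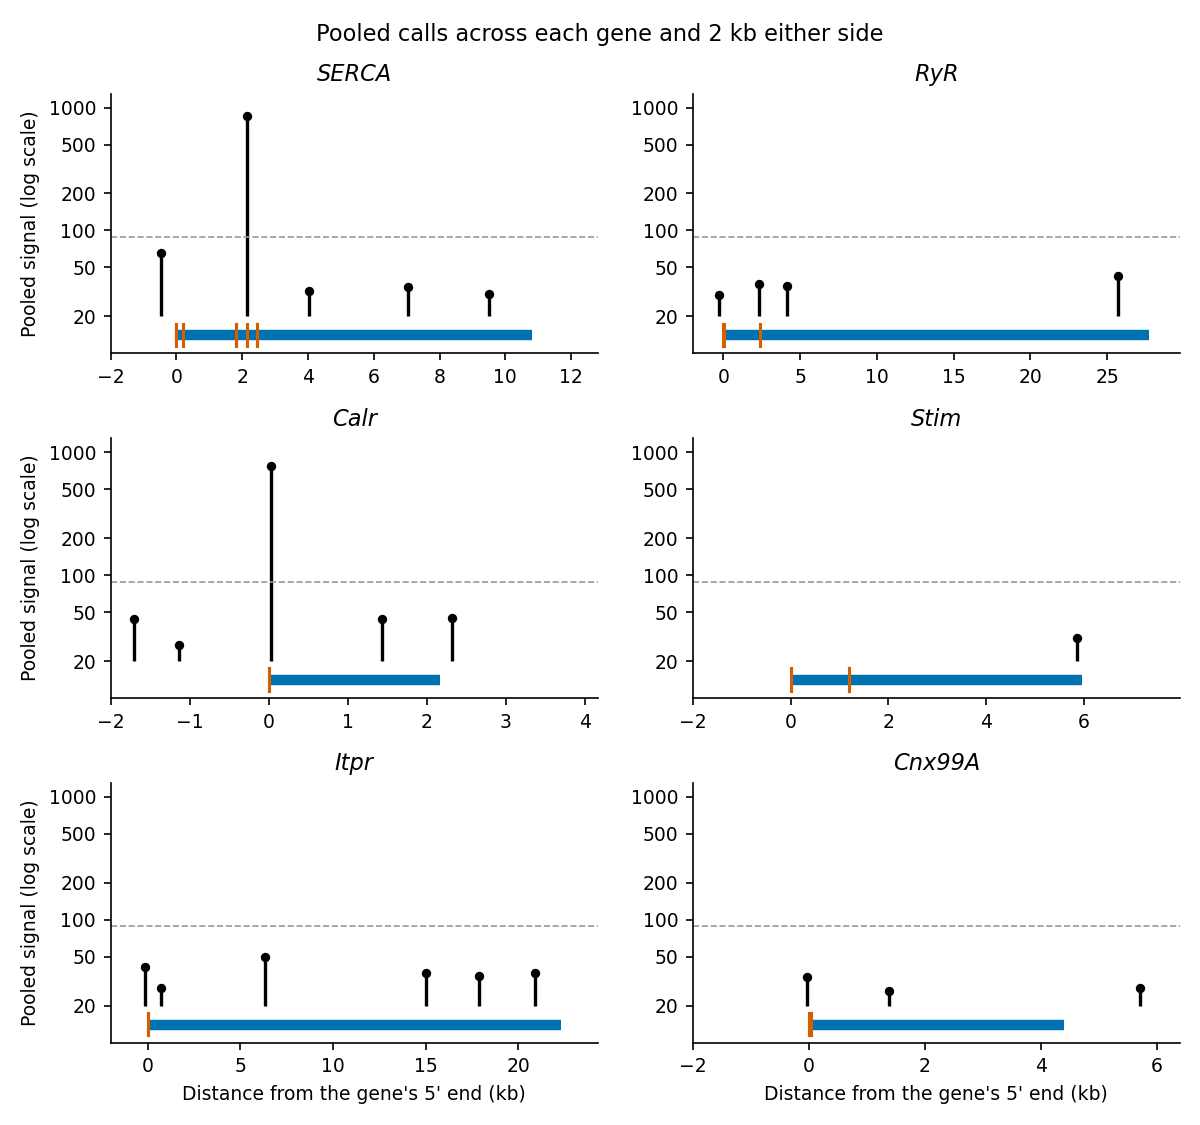
Pooled calls (stems, signal on a log scale) across each gene and 2 kb on either side, in kb from the 5′ end of the gene, with the gene in blue, its TSSs in orange and the lowest optimal signal of 88.6 as a dashed line. A stem rises above the dashed line only at SERCA and Calr.

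Itpr (FBgn0010051), the inositol trisphosphate receptor, spans 22295 bp on 3R from 5517117 to 5539411 on the plus strand and had 6 pooled calls of 28.0 to 50.2. The strongest, at 5523434, lay in an Itpr intron but only 106 bp upstream of the TSS of Nmdar1, a glutamate receptor gene on the opposite strand. It had a relative signal of 0.664 in replicate 2 and 0.412 in replicate 3 and no match in replicate 1, so the strongest call counted for Itpr sat beside another gene's start. The call at Itpr's own TSS, 158 bp upstream, had a pooled signal of 41.1. In replicate 3 it reached 26.7 at rank 1504, just short of the 26.8 that bounded the 1471 strongest calls of that replicate, a relative signal of 0.808, while the relative signal was 0.292 in replicate 2 and replicate 1 had no call there. The Itpr promoter came near that bound in replicate 3 alone.

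RyR (FBgn0011286), the ryanodine receptor, spans 27734 bp on 2R from 8860364 to 8888097 on the plus strand and is the longest of the 6 genes. It had 4 pooled calls of 30.1 to 42.3. The strongest, at 8886069, lay in a coding exon near the 3′ end and was found in replicate 1 at 10.6 and replicate 3 at 10.8, with none in replicate 2. The call 74 bp upstream of the start at 8862773 had a lower pooled signal of 36.5 but was the only RyR call matched in all 3 replicates. The match was loose, with replicate summits that spanned 230 bp and lay up to 152 bp from the pooled one. Relative signals there were 0.313, 0.396 and 0.352, a mean of 0.354 ± 0.0413 (SD, n = 3). These values are far below those at SERCA and Calr in every replicate.

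Stim (FBgn0045073), the store sensor, spans 5957 bp on X from 15934495 to 15940451 on the minus strand and was the gene with fewest calls. Its single pooled call, of 30.6 at rank 21563, lay at 15934598 in the 3′ UTR of 1 transcript, 731 bp upstream of the TSS of the neighbour Ranbp16. The relative signals there were 0.281 in replicate 2 and 0.364 in replicate 3, and replicate 1 had 0 calls anywhere in the Stim window. Neither start of Stim had a pooled call within 1 kb.

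The nearest optimal summits to the 4 genes without one were far outside the window of 2 kb. The distance from the gene was 49973 bp for Itpr (beside RpL35A), 63139 bp for RyR (beside CG33199), 46494 bp for Stim (beside ND-20) and 16336 bp for Cnx99A (nearest CG14506). All 4 of those summits had signals of 95.9 to 141.

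**Figure D4:**
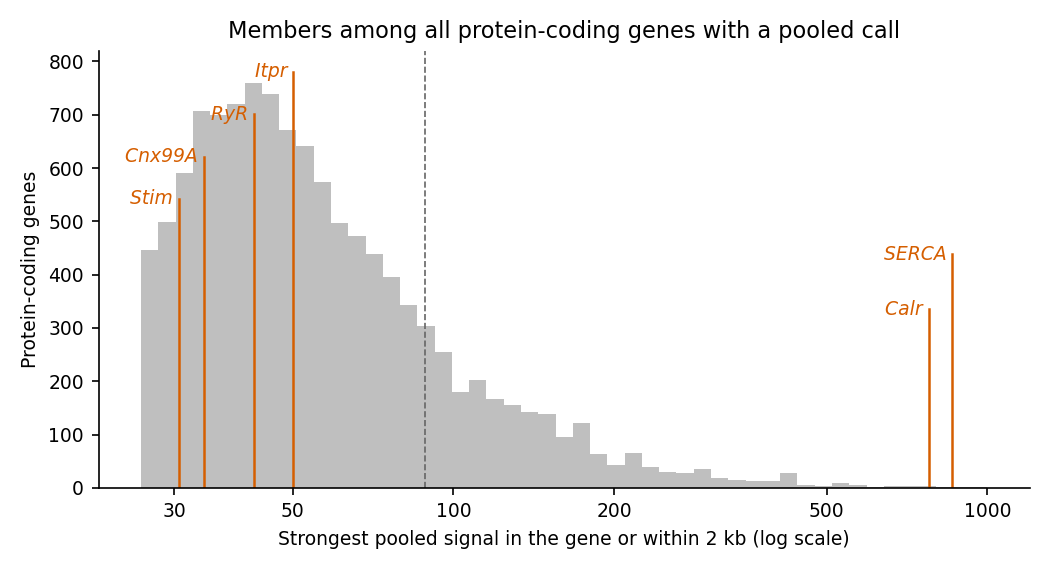
Histogram of the strongest pooled signal in the gene or within 2 kb (log scale) over the 11385 protein-coding genes with a pooled call, with the 6 genes as orange lines (the line height carries no meaning) and the lowest optimal signal as a dashed line. SERCA and Calr lie in the far upper tail. Itpr, at 50.2, lies near the median of 49.9, and RyR, at 42.3, lies below it. Cnx99A, at 34.1, and Stim, at 30.6, lie towards the lowest signal kept, 26.1.

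The relaxed lists, which hold peaks and background together, had a call at most genes. Each list held 30000 calls, a size limit that was reached, so the shares with a call and each missing call depend on that limit. The lowest signal kept in the pooled list was 26.1. In the pooled list 6 of the 6 genes had a call, beside 81.6% of all protein-coding genes. In replicate 1 the count was 5 of 6 beside 84.0%, in replicate 2 it was 6 of 6 beside 80.2%, and in replicate 3 it was 6 of 6 beside 82.2%. The strongest pooled signal was 50.2 at Itpr, 42.3 at RyR, 34.1 at Cnx99A and 30.6 at Stim, beside a median of 49.9 over genes with a call. Genes with a stronger pooled call made up 40.5%, 52.2%, 67.3% and 74.0% of all 13945 genes for these 4 in the same order. The shares were 0.0215% (3 genes) for SERCA and 0.0287% (4 genes) for Calr. Unlike the median, these shares count the 2560 genes without a pooled call in their base, which makes them lower. In order of level, SERCA and Calr came first, with mean relative signals of 6.77 and 6.22 and replicate ranges that overlapped. Itpr, RyR, Cnx99A and Stim followed. The order of these 4 was not stable between replicates, since the strongest call in the window had a signal of 19.3 at RyR and 17.9 at Itpr in replicate 1, and of 20.6 at Cnx99A and 19.1 at RyR in replicate 2.

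Call density followed the order of the strongest signal only in part. Pooled calls per kb were 0.812 at Calr, 0.358 at Cnx99A, 0.338 at SERCA, 0.228 at Itpr, 0.126 at RyR and 0.100 at Stim, beside a median of 0.284 over all genes. In the gene body alone they were 0.925 at Calr, 0.370 at SERCA and 0.228 at Cnx99A. At Itpr, Stim and RyR they were then 0.224, 0.168 and 0.108. The 22 pooled calls of the 6 genes that were not optimal peaks had a median signal of 35.2, beside 34.9 over all 28529 such calls. Of the 22, 2 (9.09%) had a call within 200 bp in all 3 replicates, beside 16.7% of all such calls.

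Other calcium and ER genes were taken from 3 further lists: 12 genes of calcium transport, 9 matched genes of inositol trisphosphate signalling and 16 chaperones and folding enzymes of the ER lumen. The lists were written by hand and are loose as classes. The place of a gene in the signalling list is uncertain, and the lumen list also holds a membrane-anchored calnexin. An optimal summit in the gene or within 2 kb was found at 2 of the 12, 1 of the 9 and 3 of the 16, beside 14.8% of all protein-coding genes. Within 1 kb of a TSS the counts were 0, 0 and 2, beside 8.73%. Counts were also taken with 1 replicate left out, where a peak had to be matched among the 1471 strongest calls of the others. The calcium transport count was then 1 without any one of replicates 1, 2 and 3. The chaperone count was 1 without replicate 1 or without replicate 3. In the full relaxed lists all of these peaks had a call within 200 bp in all 3 replicates. The strongest of these peaks was at jp (junctophilin, which links ER to plasma membrane), with a signal of 247 at rank 113, but it lay 161 bp upstream of brwl and 1979 bp upstream of jp. At MCU, the mitochondrial calcium uniporter, the summit of 97.7 lay in the gene, 31245 bp from the nearest annotated TSS of MCU. The summit at norpA, a phospholipase C, had a signal of 168 and lay in the gene, 1371 bp downstream of its nearest annotated TSS.

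Among the lumen chaperones, Pdi (protein disulfide isomerase) had a summit of 120 located 607 bp upstream of its TSS and a second of 202 at the neighbour CG12316. The gene prtp had one of 111 located 425 bp upstream of its TSS and one of 89.5 at the neighbour Amun. Grp170 had one of 94.9 that lay 44 bp upstream of CG2924. The signals at SERCA and Calr, 859 and 777, exceeded the highest of these 37 genes, 247. Median strongest pooled signals, with genes without a call set to 0, were 46.2 for the 6 genes, 47.1 for the lumen chaperones, 42.6 for calcium transport and 45.2 for inositol trisphosphate signalling, beside 43.7 over all genes.

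**Figure D5:**
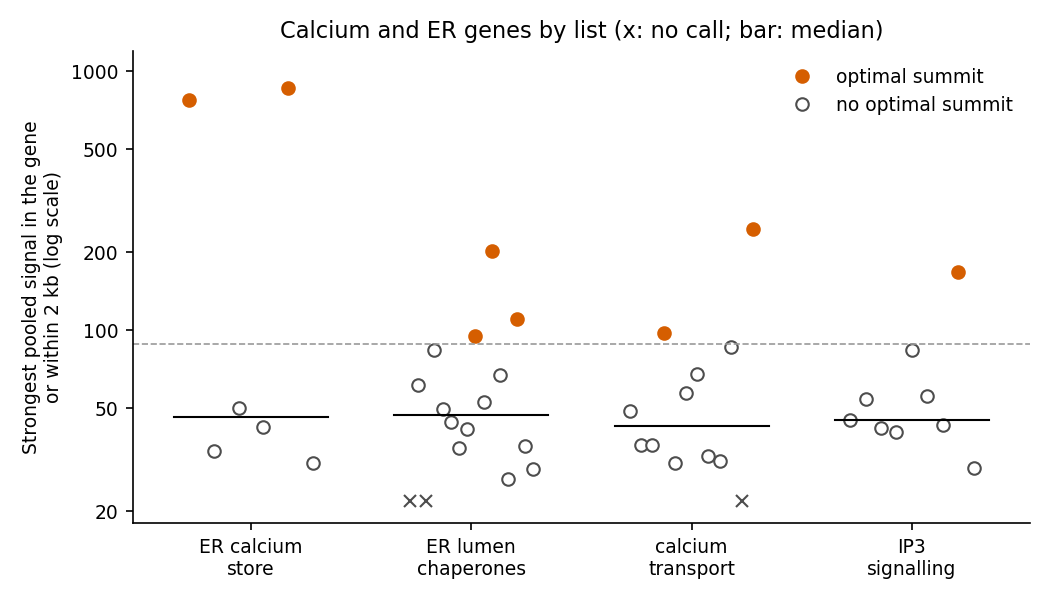
Strongest pooled signal in the gene or within 2 kb (log scale) for each gene of the 4 lists, filled where an optimal summit was present, with a bar at the list median, a cross where no pooled call was found and a dashed line at the lowest optimal signal. SERCA and Calr are the 2 points above 500, and the medians of the 4 lists lie between 42.6 and 47.1.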

How the data were processed

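Peak lists on the dm6 build were analysed from 3 libraries of 1 group. Per the text accompanying the deposited files, each replicate and the pooled replicates had a relaxed list called against a control, and an optimal list held peaks past the authors' IDR threshold. The aligner, peak caller, versions and threshold are not given in the sources used here. Lists on dm3 were not used here. The signal value of each call is as deposited by the authors. The summit offset (another measure, in bp) is also as deposited, and at least 99.6% of relaxed summits and 92.3% of optimal summits lay at the midpoint of the call (median width 416 to 480 bp). The optimal summits of SERCA and Calr did not, lying 70 and 8 bp from it. These lists give no number of reads, so depth is unknown and no interval that needs it is given.

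Summits were joined to genes, matched between lists within 200 bp (taking the strongest call) and described with means and SDs in Python 3.11.15 (pandas 2.3.3, numpy 2.4.6, matplotlib 3.10.9). Replicate support was also read from each replicate's 1471 strongest calls. No identical calls were shared between replicates. The functions were checked on simulated data. The members, gene lists and words were chosen with earlier results of these data known. Named genes were the 6 members, listed genes with an optimal summit, the gene nearest to a member's summit, and the genes of greatest likeness. Neighbours of weak calls were named after their values were seen. Of 38 listed genes, 37 were matched, 3 through synonyms. No sequence is shown for SERCA or RyR.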

Additional observations from a re-analysis of the deposited data

How the results depend on the processing

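No paired analysis was possible because the libraries form 1 group. The count of 2 of 6 genes with an optimal summit was the same for the gene body alone and for 5 kb of flank. It was also the same for the 735 optimal peaks of highest signal and for TSS windows of 500 bp and 2 kb. Peaks matched among the 1471 strongest calls of all 3 replicates, or of the others with each left out in turn, gave it too. The optimal list itself was not remade without a replicate. These 2 peaks ranked 3 and 4 and were known when the genes were chosen. The count could therefore not have fallen under these settings, and nothing is read from its stability. With the pooled relaxed list the count was 6, beside 81.6% of all genes. Without each replicate, mean relative signal ranged from 6.53 to 6.92 at SERCA and from 6.01 to 6.44 at Calr. Within 1 kb of a TSS, calcium transport had 0 genes and inositol trisphosphate signalling 0. For the gene body alone, calcium transport had 1 and the lumen chaperones 0. With each replicate left out and matching among the strongest calls of the others, calcium transport had 1 each time and the chaperones 1 to 3. At 100 bp the agreement at Itpr, Stim and Cnx99A was 1 replicate in place of 2, and at 500 bp that at Cnx99A was 3. Of 60 values under alternatives, 47 stayed within 1.5 times the count or within 1 SD, and 13 moved. Leaving out 1 of 3 replicates cannot shift a mean by 1 SD, so those means were bound to stay. The background of long genes, the shorter word and leaving out replicates for the other lists were chosen after seeing the data. Depth per library, not given here, limits what the weak calls can show.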
